A study of Mus musculus with 7 samples.

Results

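The change from circulating monocytes to tumor myeloid cells was described by setting myeloid cells of the tumor tissue against myeloid cells of the blood of tumor-bearing mice. The tumor side was the counted cells of the tumor library without the authors' clusters 11, 13 and 17, which left 1688 of its 1917 cells. The blood side was the counted cells of the tumor-bearing blood library without cluster 12, which left 337 of 354 cells. In earlier results of these data cluster 11 had been taken for macrophages with C1q, Folr2 and Mrc1. Cluster 17 had been taken for dendritic-like cells and cluster 12 for neutrophil-like cells. Together these were 2025 of the 4290 cells with gene counts in 7 libraries. Both groups came from C57/Bl6 mice bearing LLC, a transplantable Lewis lung carcinoma, at day 14. Cells of both had been enriched for CD11b, an integrin chain of myeloid cells, by magnetic separation and stained with antibodies carrying oligonucleotide tags, so that RNA and surface proteins were read in the same cells. The labels do not say how many mice gave each library or whether both tissues came from the same mice. Each group was 1 library, so no difference below has a replicate check and no test or p-value is given. How the cell suspensions were made is not given in the sources used here, so tissue and preparation cannot be told apart.

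The tumor side held 15919775 unique molecular identifiers (UMIs, counted molecules) and the blood side 4422114, with medians of 8639.5 UMIs per cell in tumor tissue and 12561 in blood. The median mitochondrial share of a cell's UMIs was 3.28% in tumor tissue and 3.27% in blood. Levels are UMIs summed over the cells of a side, per 1000000 UMIs of that side (CPM). In such sums, fewer cells with a transcript and less of it per cell cannot be told apart. Genes with 30 or more UMIs over both sums and 20 CPM or more in either one counted as measured, and were called higher or lower at 2-fold or more. Ranges in parentheses after folds are 95% intervals that cover counting error only. The 10 neutrophil markers summed to 387 CPM in tumor tissue and 2619 CPM in blood, and all 6 of them that were measured were lower in tumor tissue (S100a8, S100a9, Retnlg, Csf3r, Mmp8 and Cxcr2). Among the others, the granule protein genes Ngp, Camp and Ltf were at 0, 0 and 0.251 CPM in tumor tissue and at 0.452, 0.226 and 0.678 CPM in blood. Markers of T or NK cells summed to 0.754 CPM in tumor tissue and 3.39 CPM in blood, those of fibroblasts to 16.4 CPM in tumor tissue and 0.905 CPM in blood, and those of carcinoma cells to 11.1 CPM in tumor tissue and 5.20 CPM in blood. No cell barcode was shared by the 2 libraries.

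Classical monocytes, marked in mice by Ly6c2 and Ccr2, leave the bone marrow, circulate, and enter inflamed tissue and tumors, where they can turn into macrophages and dendritic cells. Non-classical monocytes patrol the vessel wall and carry Ace, Treml4 and little Ly6c2. Inside a tumor, low oxygen stabilises the transcription factor HIF-1, and microbial-type and cytokine signals act through NF-kB and interferons, each with a known set of target genes. Monocyte-derived cells of tumors are known for factors that attract leukocytes, remodel matrix, grow vessels and restrain T cells.

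The 2 sides barely shared a cluster. The authors' clusters 3, 5, 7, 8, 9 and 10 held 1680 of 1688 tumor cells (99.5%, exact binomial interval 99.1 to 99.8) and 3 of 337 blood cells (0.890%, 0.184 to 2.58), all 3 in cluster 9. Clusters 0, 1, 2, 4, 6 and 16 held 334 of 337 blood cells and 7 of 1688 tumor cells, and the last tumor cell lay in cluster 12. As the tumor was sampled in 1 library, a cluster found there alone could reflect the library, and the clusters keep their numbers here.

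Of 5585 measured genes, 590 were higher in tumor tissue (10.6%) and 582 lower (10.4%). At 4-fold the sides parted, with 288 genes higher (5.16%) and 96 lower (1.72%). The median log2 ratio of all measured genes was -0.19, with quartiles at -0.55 and 0.28. Scaling by trimmed means (TMM) in place of total UMIs moved that median up by 0.28, to 0.09, and split the calls into 801 higher and 304 lower genes, or 72.5% higher against 50.3% with total UMIs. Ribosomal-protein genes took 13.6% of UMIs in tumor tissue and 18.3% in blood. By the same rule 32 of 5302 genes (0.604%) differed between tumor-bearing and naive blood, a comparison that shares the tumor-bearing blood cells with this one.

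**Figure D1:**
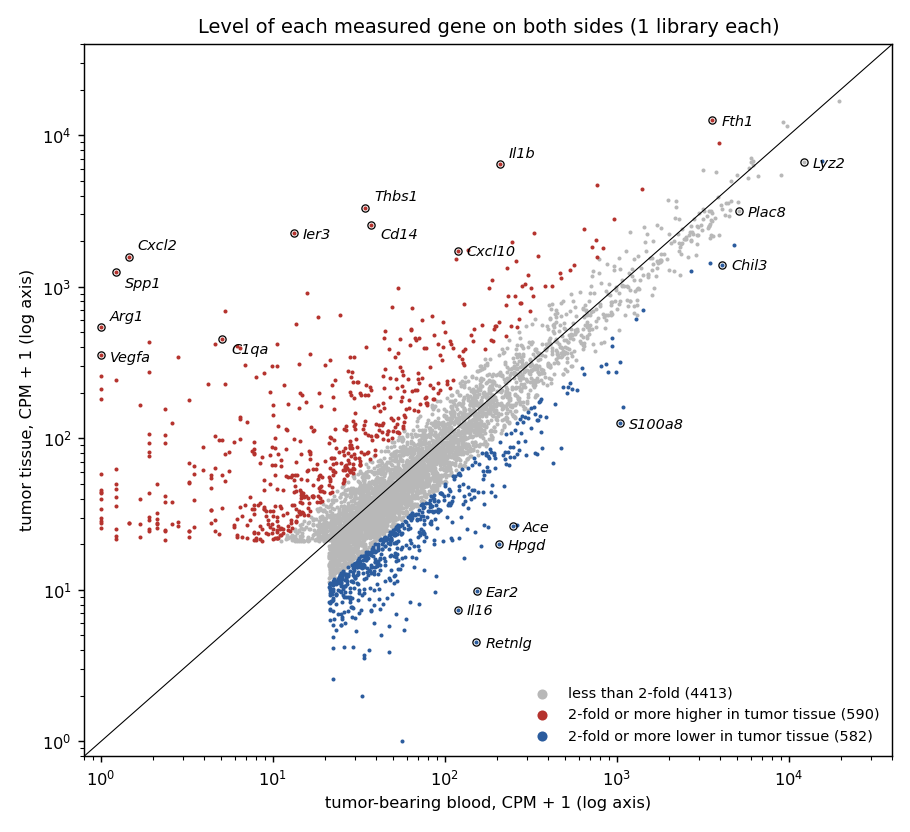
Level of each of the 5585 measured genes in tumor tissue (vertical) and tumor-bearing blood (horizontal), in CPM plus 1 on log axes, 1 point per gene and 1 library per side. Red genes (590) were 2-fold or more higher in tumor tissue and blue genes (582) lower, and the diagonal marks equal levels; the genes farthest above it, such as Cxcl2, Spp1 and Arg1, are near 0 in blood.

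The 2 genes that parted the sides most were Cxcl2, a chemokine that attracts neutrophils, and Spp1, which encodes the matrix protein osteopontin. Cxcl2 had 1566 CPM in tumor tissue and 0.452 CPM in blood, where only 2 UMIs were counted, 3462-fold higher (958 to 28586). Spp1 had 1246 CPM in tumor tissue and 0.226 CPM, or 1 UMI, in blood, 5510.2-fold higher (989 to 217653). Both intervals are wide because of the few UMIs in blood. Arg1, which encodes the arginine-consuming enzyme arginase 1, had 545 CPM in tumor tissue and no UMI in blood, at least 803-fold higher at a floor of 3 UMIs on the blood side. Vegfa, the gene of the main vessel growth factor, had 352 CPM in tumor tissue and no UMI in blood, at least 519-fold higher. For the monocyte chemokine gene Ccl7 the levels were 257 CPM in tumor tissue and 0 in blood, at least 379-fold higher. In the other 5 libraries Arg1 was at 0, and Spp1, Vegfa and Ccl7 stayed at or below 3.28 CPM, so these 4 genes were seen at this level in the tumor alone.

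Other leading genes were detected in blood and far higher in tumor tissue. Il1b, the gene of the inflammatory cytokine interleukin-1 beta, had 6496 CPM in tumor tissue and 207 CPM in blood, 31.4-fold higher (29.4 to 33.5). Thbs1, which encodes the adhesive protein thrombospondin 1, had 3285 CPM in tumor tissue and 33.5 CPM in blood, 98.2-fold higher (83.5 to 116). Cd14, the co-receptor for bacterial lipopolysaccharide, had 2563 CPM in tumor tissue and 36.2 CPM in blood, 70.8-fold higher (60.6 to 83.2). All 3 stood in each of the 6 tumor clusters above each of the 4 blood clusters of at least 50 cells, as did 558 of the 5585 measured genes (9.99%); 980 genes (17.5%) stood below in the same way. The stress-induced gene Ier3 had 2252 CPM in tumor tissue and 12.2 CPM in blood, 184-fold higher (141 to 246), and Basp1, a gene of a membrane-bound signaling protein, 687 CPM in tumor tissue and 4.30 CPM in blood, 159.9-fold higher (102 to 266). Osm, which encodes the cytokine oncostatin M, had 417 CPM in tumor tissue and 3.62 CPM in blood, 115-fold higher (71 to 202). Cd83, an activation marker, had 408 CPM in tumor tissue and 5.20 CPM in blood, 78.5-fold higher (52.2 to 124), at nearly the same level in every tumor cluster (369.7 to 452 CPM).

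The genes farthest below blood were of several kinds. Retnlg, which encodes a resistin-like protein of neutrophils and young monocytes, had 3.52 CPM in tumor tissue and 151 CPM in blood, 42.9-fold lower (32.7 to 57.5). Il16, the gene of a lymphocyte-attracting cytokine, had 6.41 CPM in tumor tissue and 118 CPM in blood, 18.4-fold lower (14.8 to 23). It lay between 105 and 128 CPM in the other 5 libraries and between 113 and 126 CPM in the 4 blood clusters, so tumor tissue stood alone. Ear2, an eosinophil-type ribonuclease gene of non-classical monocytes, had 8.79 CPM in tumor tissue and 153 CPM in blood, 17.4-fold lower (14.4 to 21). Hpgd, which encodes the enzyme that inactivates prostaglandins, had 19 CPM in tumor tissue and 204 CPM in blood, 10.8-fold lower (9.45 to 12.3). Serpinb10, a gene of the protease inhibitor family annotated as a polymorphic pseudogene, had 25.6 CPM in tumor tissue and 263 CPM in blood, 10.3-fold lower (9.17 to 11.5).

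**Figure D2:**
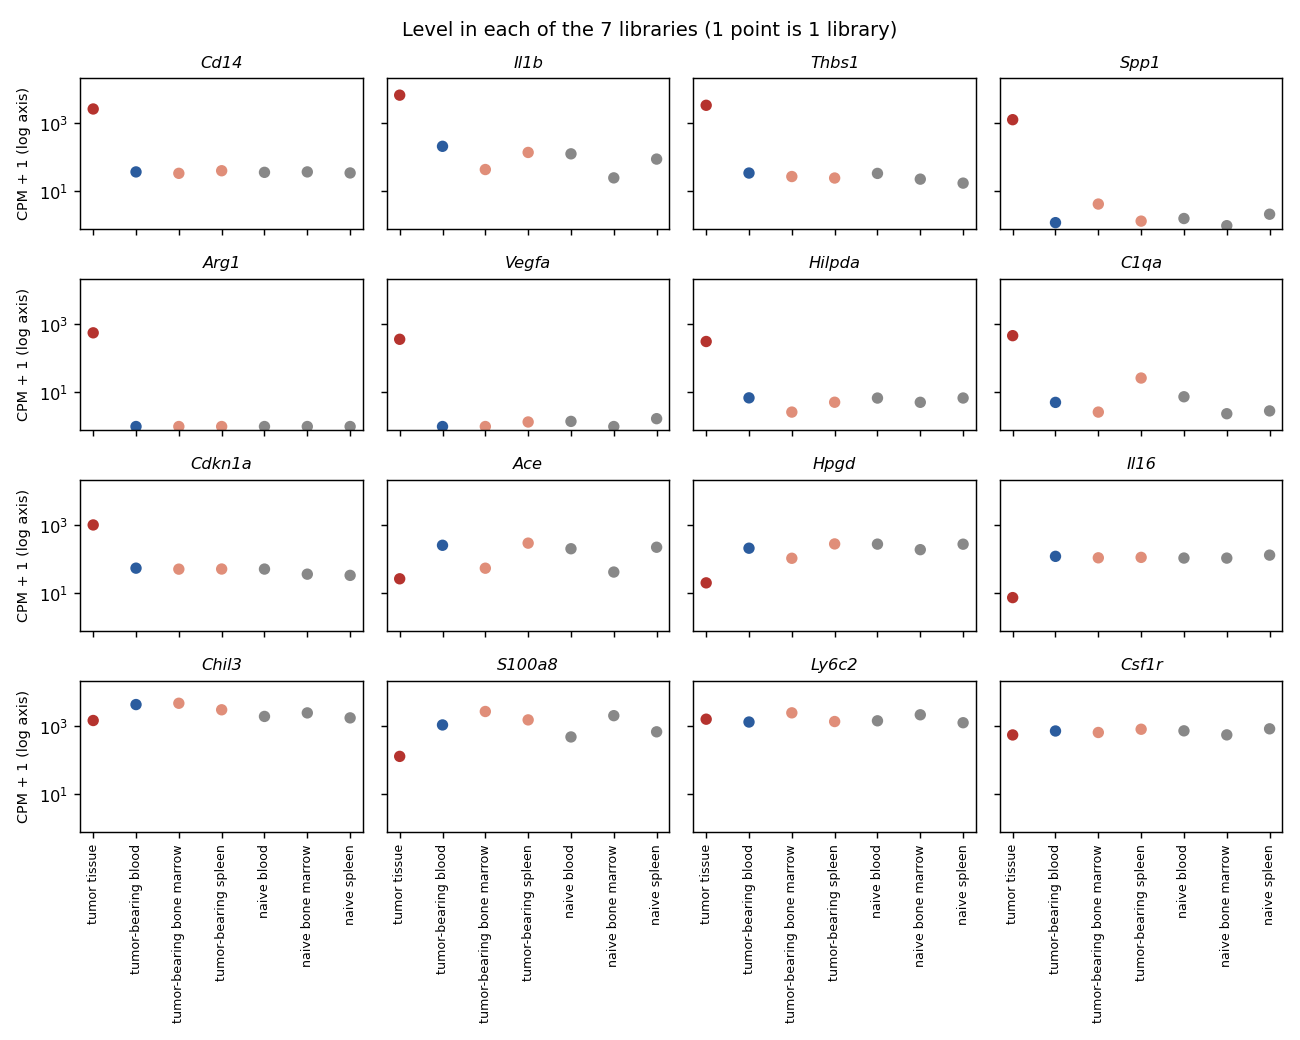
Level of 16 genes in each of the 7 libraries, in CPM plus 1 on a log axis, 1 point per library: tumor tissue in red, tumor-bearing blood in blue, other tumor-bearing tissues in light red and naive tissues in grey. Tumor tissue stands alone above the other 6 for Cd14, Il1b, Thbs1, Spp1, Arg1, Vegfa, Hilpda, C1qa and Cdkn1a and alone below them for Ace, Hpgd, Il16, Chil3 and S100a8, while Ly6c2 and Csf1r lie within the range of the others or next to it.

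Ly6c2 and Ccr2, which mark the classical monocyte, stayed under the 2-fold mark, while some other genes of these cells were lower. Of 20 measured members of the classical list, 2 were called higher and 6 lower. With TMM scaling 4 were higher and 6 lower. Without blood cluster 4 or against naive blood 8 were lower, and over the 22 settings 4 to 8. The list's median log2 ratio was -0.67, against -0.19 for all measured genes. Of the 8 classical monocyte markers 1 was lower and none higher. Ly6c2, the gene of the surface antigen that defines these cells, had 1530.4 CPM in tumor tissue and 1265 CPM in blood, 1.21-fold higher (1.18 to 1.25), under the 2-fold mark. Within the tumor it differed more than between the sides, with 816 CPM in cluster 3 and 2688 CPM in cluster 10. Ccr2, the receptor for monocyte chemokines, had 651 CPM in tumor tissue and 919.7 CPM in blood, 1.41-fold lower (1.36 to 1.47), also under the mark. Chil3, which encodes a chitinase-like lectin, was among the lower members, with 1400.3 CPM in tumor tissue and 4093 CPM in blood, 2.92-fold lower (2.87 to 2.98). Against naive blood, at 1843 CPM, Chil3 was 1.32-fold lower and no longer called. Hp, the gene of the hemoglobin scavenger haptoglobin, had 319.9 CPM in tumor tissue and 1035 CPM in blood, 3.23-fold lower (3.11 to 3.37). The lysozyme genes Lyz1 and Lyz2, whose near-identical sequences make their separate counts uncertain, had 6789 and 6615 CPM in tumor tissue against 15588 and 12187 CPM in blood. Thbs1, already given, and F10, the gene of coagulation factor X, with 526 CPM in tumor tissue and 147 CPM in blood, 3.57-fold higher (3.30 to 3.87), were the 2 higher members.

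Genes of the non-classical monocyte were mostly lower. Of the list's 18 measured members 14 were lower in tumor tissue and 1 higher, with a median log2 ratio of -2.09. Ace, which encodes angiotensin-converting enzyme, had 25.3 CPM in tumor tissue and 249 CPM in blood, 9.87-fold lower (8.80 to 11.1). Treml4, a receptor gene of these cells, had 23 CPM in tumor tissue and 148 CPM in blood, 6.45-fold lower (5.67 to 7.35). Itgal, the alpha chain of the integrin LFA-1, had 85.2 CPM in tumor tissue and 470.1 CPM in blood, 5.52-fold lower (5.15 to 5.91). Cluster 4 of the blood, 64 of the 337 cells, carried the highest levels of these 3 genes (727, 407 and 1067 CPM). Without cluster 4 on the blood side 11 of the list's members were still called lower and 3 higher. The higher member was Nr4a1, the nuclear receptor that non-classical monocytes need and that is also an early response gene, with 473 CPM in tumor tissue and 225 CPM in blood.

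Granule protein genes were mostly lower too. Of 12 measured neutrophil granule genes 8 were lower in tumor tissue and none higher, with a median log2 ratio of -1.69, and against naive blood 5 were lower. On that list Lcn2, the gene of the iron-trapping protein lipocalin 2, had 8.73 CPM in tumor tissue and 86.8 CPM in blood, 9.95-fold lower (8.17 to 12.2). S100a8 and S100a9, which pair as calprotectin and are not on the granule list, were lower as well. S100a8 had 124 CPM in tumor tissue and 1039 CPM in blood, 8.35-fold lower (7.92 to 8.80). S100a9 had 161 CPM in tumor tissue and 1089.5 CPM in blood, 6.78-fold lower (6.46 to 7.12). Naive blood had 463 CPM of S100a8 and 12.8 CPM of Lcn2, against which Lcn2 was 1.47-fold lower and no longer called. Neutrophil markers moved the same way, with sums of 387 CPM in tumor tissue and 2619 CPM in blood over all 10 markers, of which S100a8 and S100a9 made up most. The part of neutrophil RNA in these values was not tested. Of 8 measured S100 genes, only S100a10 was higher, with 1825 CPM in tumor tissue and 718 CPM in blood, 2.54-fold higher (2.45 to 2.64), while S100a4 was level at 3057 CPM in tumor tissue and 3014 CPM in blood.

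Macrophage genes were higher as a block. Of 26 measured members of the macrophage maturation list 20 were higher in tumor tissue and none lower, with a median log2 ratio of 2.74, and for 14 of the 26 each tumor cluster lay above each blood cluster. C1qa, a subunit gene of the complement starter C1q, had 450.1 CPM in tumor tissue and 4.07 CPM in blood, 111-fold higher (69.9 to 187). Its neighbours on chromosome 4, C1qb and C1qc, had 647 and 299 CPM in tumor tissue against 23.5 and 9.50 CPM in blood. The receptor for the complement fragment C3a, C3ar1, had 274 CPM in tumor tissue and 0.905 CPM in blood, 303-fold higher (118 to 1114). Fcgr1, the high-affinity receptor for IgG, had 984 CPM in tumor tissue and 180.0 CPM in blood, 5.47-fold higher (5.09 to 5.88). Adgre1, which encodes the macrophage antigen F4/80, was not higher, with 116 CPM in tumor tissue and 129.6 CPM in blood. Mertk and Folr2, markers of settled macrophages, were at 0.440 and 17.7 CPM in tumor tissue and 0.452 and 0.226 CPM in blood, under the minimum for measurement. The 134 tumor cells of cluster 11, taken for macrophages with Folr2, were left out beforehand. These low levels therefore do not describe the tumor library as a whole.

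The C1q genes were not spread evenly over the tumor. C1qa stood at 669 CPM in cluster 3 and 1138 CPM in cluster 8, and at 53.6 to 113 CPM in the 4 other tumor clusters. Ms4a7, a membrane protein gene of macrophages, followed the same clusters, with 624 CPM in cluster 3, 816 CPM in cluster 8 and no more than 89.7 CPM elsewhere. Spp1 and Arg1 were also highest in these 2 clusters, at 2555 and 1680.4 CPM for Spp1 and 1098 and 775 CPM for Arg1. The clusters were built from these same counts and share 1 library, so their differences are a description.

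**Figure D3:**
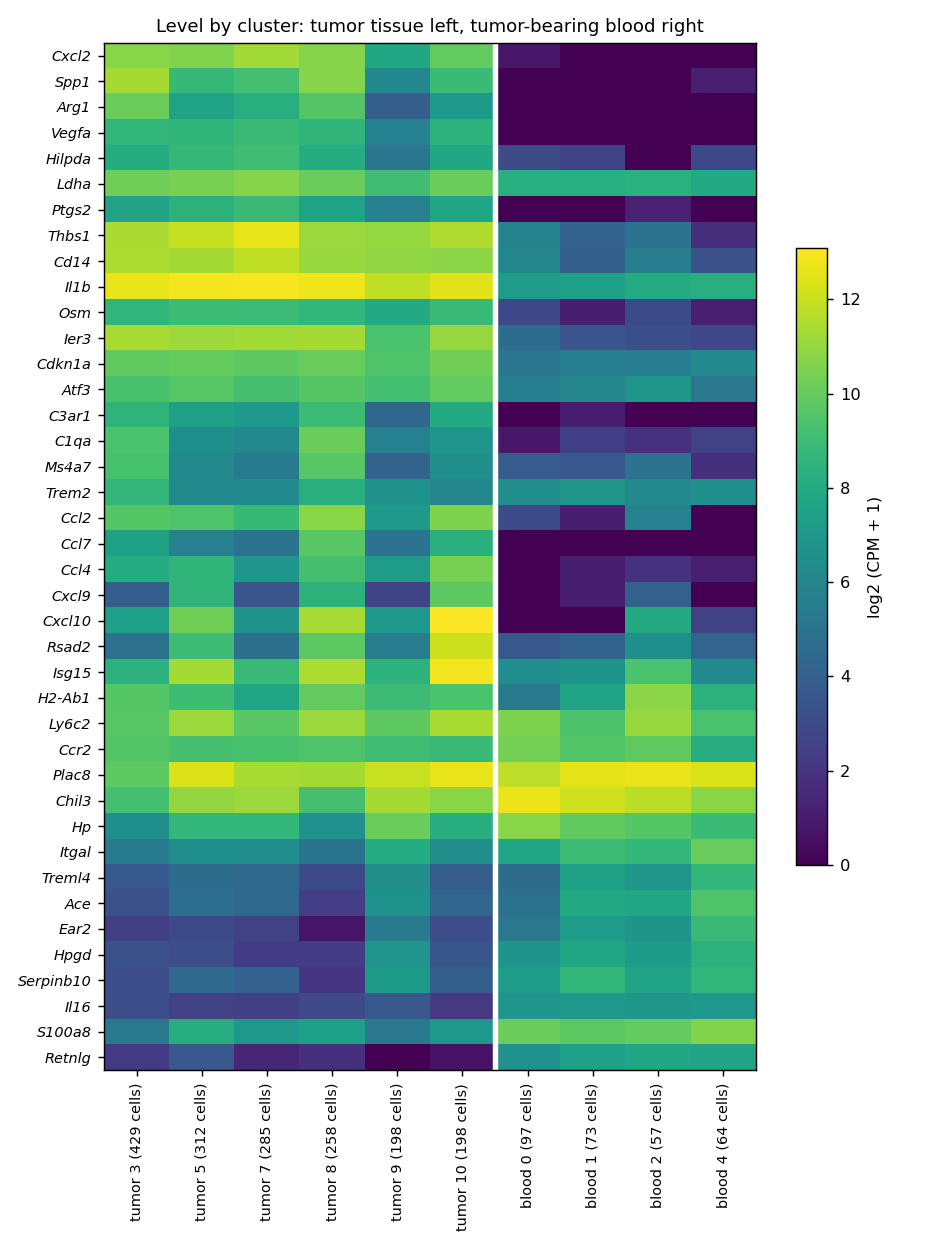
Levels of 40 genes, as log2 of CPM plus 1, in the 6 tumor tissue clusters (left of the white line) and the 4 tumor-bearing blood clusters of at least 50 cells (right of it). Genes from Cxcl2 to Atf3 are brighter on the left than on the right, and genes from Itgal to Retnlg mostly darker on the left. Tumor cluster 9 is brighter than the other tumor clusters for Ace, Treml4 and Hpgd, and for Ace brighter than the darkest blood cluster.

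Cluster 9 of the tumor held the highest tumor levels of some genes that were high in blood. Its Ace level was 104 CPM, against 4.19 to 25.7 CPM in the 5 other tumor clusters and 28.1 to 727 CPM in the blood clusters. Hpgd was at 113 CPM there, Treml4 at 87.3 CPM and Hp at 1077 CPM, each above every other tumor cluster. Tumor genes were present but lower in cluster 9 than elsewhere in the tumor, with 69 CPM of Spp1, 14.8 CPM of Arg1, 54.2 CPM of Vegfa and 219.6 CPM of Cxcl2. Il1b at 3682 CPM, Cd14 at 1919 CPM, Thbs1 at 2067 CPM and Cdkn1a at 723 CPM were each above all 4 blood clusters. S100a9 and S100a8, also high in blood, went the other way and were lowest there, at 7.42 CPM of S100a9 and 37.1 CPM of S100a8. Without cluster 9, 625 genes were higher and 651 lower.

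Genes that cells switch on at low oxygen were higher in tumor tissue. Of 23 measured hypoxia genes 15 were higher and 1 lower, with a median log2 ratio of 1.99. Besides Vegfa, Hilpda, which blocks lipid breakdown at low oxygen, had 303 CPM in tumor tissue and 5.88 CPM in blood, 51.6-fold higher (35.2 to 79.1). Ankrd37 had 126 CPM in tumor tissue and 6.11 CPM in blood, 20.7-fold higher (14.2 to 31.5). Egln3, an oxygen-sensing prolyl hydroxylase that feeds back on HIF, had 36.7 CPM in tumor tissue and 1.58 CPM in blood, 23.2-fold higher (11.2 to 58), and Bnip3, which marks mitochondria for removal, 157 CPM in tumor tissue and 13.1 CPM in blood, 12-fold higher (9.24 to 15.8). Hif1a itself, whose protein is set mainly by its stability, had 232 CPM in tumor tissue and 70.1 CPM in blood, 3.31-fold higher (2.95 to 3.73). All 5 of Vegfa, Hilpda, Egln3, Bnip3 and Hif1a were lowest among the tumor clusters in cluster 9 and highest in cluster 7. The lower member was Selenbp1, which encodes a selenium-binding protein, with 15.8 CPM in tumor tissue and 33.9 CPM in blood, and it was not called with TMM scaling.

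Glycolysis genes shared this direction. Of 18 measured members 11 were higher and none lower, with a median log2 ratio of 1.39, and for 10 of the 18 each tumor cluster lay above each blood cluster. Slc2a1, the glucose transporter GLUT1, had 235 CPM in tumor tissue and 29.6 CPM in blood, 7.93-fold higher (6.66 to 9.51). Tpi1, triose phosphate isomerase, had 768 CPM in tumor tissue and 128 CPM in blood, 6.02-fold higher (5.53 to 6.56). Ldha, which makes lactate, had 1197 CPM in tumor tissue and 302 CPM in blood, 3.96-fold higher (3.75 to 4.19), and the lactate exporter Slc16a3 had 502 CPM in tumor tissue and 98.8 CPM in blood, 5.08-fold higher (4.61 to 5.61). Pfkfb3, which activates the pathway at phosphofructokinase, had 65.4 CPM in tumor tissue and 8.82 CPM in blood, 7.41-fold higher (5.39 to 10.5). Hexokinase genes were not called, with 61.9, 66.4 and 39.7 CPM of Hk3, Hk2 and Hk1 in tumor tissue against 41.6, 52.7 and 32.6 CPM in blood. None of the 47 measured nuclear genes of the respiratory chain was called in either direction, and their median log2 ratio was -0.19, the value of all measured genes, or 0.09 with TMM scaling, where that of all measured genes was also 0.09.

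The promoters of these genes were read for the letters that HIF binds. The hypoxia response element core was searched as ACGTG on both strands in the 250 bases before the start of each gene, in RefSeq promoters of build GRCm38.p6. It also lies within CACGTG, the E-box of other factors. The core was found in 15 of 26 promoters of the hypoxia list (57.7%) and 13 of 24 of the glycolysis list (54.2%), against 1296 of 5554 promoters of measured genes (23.3%) and 5444 of all 32851 (16.6%). Outside an E-box it was in 13 of 26, 12 of 24, 15.7% and 11.4% of these. A match is a description and not evidence of binding, and a promoter without one may hold it elsewhere. Stretches of 150 bases are shown for 6 genes called higher, chosen since they hold the core, read along the strand of the gene with the core in capitals (ACGTG, its complement CACGT, or both where they overlap as CACGTG).
Ankrd37: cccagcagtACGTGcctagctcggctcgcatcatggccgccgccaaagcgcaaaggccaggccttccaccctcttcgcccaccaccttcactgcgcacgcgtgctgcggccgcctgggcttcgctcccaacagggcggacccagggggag
Egln3: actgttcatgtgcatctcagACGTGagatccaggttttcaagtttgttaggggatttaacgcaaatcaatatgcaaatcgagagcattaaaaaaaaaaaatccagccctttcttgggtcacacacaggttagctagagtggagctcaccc
Hilpda: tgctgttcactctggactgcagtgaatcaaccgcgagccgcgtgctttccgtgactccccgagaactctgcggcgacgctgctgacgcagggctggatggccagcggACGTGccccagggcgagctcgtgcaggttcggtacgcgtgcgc
Slc2a1: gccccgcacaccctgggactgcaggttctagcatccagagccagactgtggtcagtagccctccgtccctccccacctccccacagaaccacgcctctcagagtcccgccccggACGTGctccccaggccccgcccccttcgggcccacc
Ldha: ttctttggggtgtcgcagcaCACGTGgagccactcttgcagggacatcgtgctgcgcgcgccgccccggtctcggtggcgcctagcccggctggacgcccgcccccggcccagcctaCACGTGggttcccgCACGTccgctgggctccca
Pgk1: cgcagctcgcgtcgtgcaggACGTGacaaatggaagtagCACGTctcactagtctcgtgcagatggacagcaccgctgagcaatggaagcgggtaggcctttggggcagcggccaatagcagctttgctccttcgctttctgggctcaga
They are Ankrd37 at chr8:45999951-46000100 on the minus strand, Egln3 at chr12:54203974-54204123 on the minus strand, Hilpda at chr6:29272476-29272625 on the plus strand, Slc2a1 at chr4:119108595-119108744 on the plus strand, Ldha at chr7:46845639-46845788 on the plus strand and Pgk1 at chrX:106186930-106187079 on the plus strand (GRCm38.p6). Ldha holds 2 E-box forms and 1 single core, Pgk1 a core on each strand, and the other 4 shown a single core on the gene's strand. Pgk1, phosphoglycerate kinase, had 869 CPM in tumor tissue and 256 CPM in blood, 3.40-fold higher (3.20 to 3.61).

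Most measured chemokine genes were higher in tumor tissue, beside 10.6% of all measured genes. These included Cxcl1, Cxcl2 and Cxcl3, which attract neutrophils, the CXCR6 ligand gene Cxcl16, and all 3 measured inflammatory CC chemokines. All 3 measured T-cell-attracting CXC chemokines and 5 of 6 measured monocyte-attracting CC chemokines were also higher, and none was lower. These lists held 7, 6, 4 and 8 genes, in that order, before the minimum for measurement. A gene near 0 in blood could reach that minimum only through the tumor side, so its direction followed from the filter. Ccl2, the main ligand of CCR2, had 908 CPM in tumor tissue and 14.7 CPM in blood, 61.7-fold higher (48.4 to 80). Ccl4, which encodes an inflammatory CC chemokine, had 429 CPM in tumor tissue and 0.905 CPM in blood, 474-fold higher (185 to 1739). Cxcl1 and Cxcl3, which act on CXCR2 as Cxcl2 does, had 43.1 and 57 CPM in tumor tissue and no UMI in blood, at least 63.5-fold and 84-fold higher. Cxcl9, a ligand of the T-cell receptor CXCR3, had 227 CPM in tumor tissue and 3.17 CPM in blood, 71.8-fold higher (42.8 to 132). Cxcl11, annotated as a polymorphic pseudogene, had 38.5 CPM in tumor tissue and no UMI in blood. Its call ended without tumor cluster 10, where its level fell under the minimum for measurement. The smallest difference was that of Ccl6, with 1306 CPM in tumor tissue and 1046 CPM in blood, which was not called. Ccl9, with 1009.6 CPM in tumor tissue and 416 CPM in blood, was no longer called against naive blood. Of 6 platelet markers, Gp1bb, Gp9, Itga2b and Treml1 were at or near 0 on both sides, Ppbp, a platelet CXC chemokine gene, had 5.03 CPM in tumor tissue and no UMI in blood, and Pf4, which macrophages also express, had 138 CPM in tumor tissue and 5.43 CPM in blood. The part of platelet RNA in the chemokine values was not tested.

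Different chemokines peaked in different tumor clusters. Cxcl2 was highest in cluster 7, at 2505 CPM. Ccl2 and Ccl7 were highest in cluster 8, at 1705 and 819.9 CPM. Ccl4, Cxcl9 and Cxcl10 were highest in cluster 10, at 1353, 885 and 8699 CPM. Several of the genes lie in 3 groups of neighbours, with Cxcl1, Cxcl2 and Cxcl3 between 90786103 and 90905938 and Cxcl9, Cxcl10 and Cxcl11 between 92321347 and 92365485 on chromosome 5, and Ccl2, Ccl7 and Ccl12 between 82035571 and 82103400 on chromosome 11 (GRCm38, GENCODE M21). Neighbours thus peaked in the same cluster for Ccl2 and Ccl7 and for Cxcl9 and Cxcl10.

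Receptors for attractants split. Of 13 measured receptor genes 7 were higher and 3 lower. Ccr1, a receptor for inflammatory CC chemokines, had 452 CPM in tumor tissue and 53.8 CPM in blood, 8.39-fold higher (7.37 to 9.59). C5ar1, the receptor for the complement fragment C5a, had 386 CPM in tumor tissue and 46.6 CPM in blood, 8.29-fold higher (7.21 to 9.57). S1pr5, a sphingosine phosphate receptor that lets cells leave tissue, had 1.01 CPM in tumor tissue and 32.1 CPM in blood, 32-fold lower (19 to 57.4); blood cluster 4 alone had 116 CPM, and without that cluster the gene was under the minimum for measurement. Cx3cr1, the fractalkine receptor, had 79.6 CPM in tumor tissue and 233 CPM in blood, 2.92-fold lower (2.69 to 3.17). Integrin genes split as well. Itga4 had 78.1 CPM in tumor tissue and 342 CPM in blood, 4.38-fold lower (4.06 to 4.72), beside Itgal above. Itga5 was 2.52-fold higher (2.10 to 3.05) and Itgam, the gene of CD11b, 2.05-fold higher (1.93 to 2.18). Itgb2 was not called, at 512 CPM in tumor tissue and 585 CPM in blood. In all, 4 of 17 measured adhesion genes were lower, 3 higher and 10 not called, beside 10.4% lower and 10.6% higher of all measured genes.

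Cytokines, matrix genes and ligands for T cells added to the secreted and surface program. Of 15 measured cytokine and growth factor genes 12 were higher and none lower, with a median log2 ratio of 4.46. The lists of cytokine, matrix and checkpoint genes held 32, 31 and 22 genes before the minimum for measurement. Genes near 0 in blood, such as Vegfa and Spp1, reached that minimum only through the tumor side. The direction of such genes followed from the filter. The interleukin-1 antagonist gene Il1rn was higher with its target, at 309 CPM in tumor tissue and 13.1 CPM in blood, 23.6-fold higher (18.2 to 31.1). Tgfb1, a repair and immune-restraining factor, was level at 526 CPM in tumor tissue and 539 CPM in blood. Of 21 measured matrix genes 14 were higher and 2 lower, among them Mmp14, a membrane-bound matrix protease, with 92.8 CPM in tumor tissue and 0.905 CPM in blood, 103-fold higher (40 to 377). The 2 lower were the granule proteases Mmp8 and Mmp9, at 38.8 and 6.28 CPM in tumor tissue against 141 and 26.2 CPM in blood, and against naive blood neither was called. Mmp9 was still 2.63-fold lower against naive blood, but under the minimum for measurement. Of 12 measured checkpoint and costimulation genes 10 were higher and none lower. Cd274, which encodes PD-L1, had 70.4 CPM in tumor tissue and 10.2 CPM in blood, 6.92-fold higher (5.14 to 9.54), and Cd80, a costimulator that also binds PD-L1, 60.3 CPM in tumor tissue and 4.52 CPM in blood, 13.3-fold higher (8.58 to 21.9). Ptgs2, cyclooxygenase 2, which starts prostaglandin synthesis, had 243 CPM in tumor tissue and 0.226 CPM, or 1 UMI, in blood, 1075-fold higher (193 to 42459.7), where its opposite Hpgd was high.

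Early response genes were mostly higher, and so were many NF-kB feedback genes. Of 25 measured immediate early genes 20 were higher and none lower, with a median log2 ratio of 2.77, and for 21 of the 25 each tumor cluster lay above each blood cluster. Fos and Jun, which pair as AP-1, had 2257 and 644 CPM in tumor tissue against 328 and 83.2 CPM in blood. Atf3, a stress-induced repressor, had 726 CPM in tumor tissue and 63.3 CPM in blood, 11.5-fold higher (10.2 to 13). Of 26 measured NF-kB feedback and survival genes 15 were higher and none lower, and for 12 of the 26 each tumor cluster lay above each blood cluster. Nfkbia, the inhibitor that NF-kB switches on to stop itself, had 1476 CPM in tumor tissue and 257 CPM in blood, 5.74-fold higher (5.41 to 6.09). Nfkb1, a subunit of NF-kB, was not called, at 112 CPM in tumor tissue and 185 CPM in blood. Heat shock genes, which mark handling stress as well as other stress, were called in 2 of 12 cases as higher and in 1 as lower. The other 9 were not called, and of all measured genes 10.6% were higher and 10.4% lower. Hspa1a had 413 CPM in tumor tissue and 61.5 CPM in blood, 6.71-fold higher (5.94 to 7.60), and Hspa8 3163 CPM in tumor tissue and 3194 CPM in blood. The part of cell handling in the early response genes was not tested. Cdkn1a, which encodes the cell cycle brake p21, had 981 CPM in tumor tissue and 52.7 CPM in blood, 18.6-fold higher (16.4 to 21.3), while Pcna, a replication gene, had 71.4 CPM in tumor tissue and 55.6 CPM in blood.

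**Figure D4:**
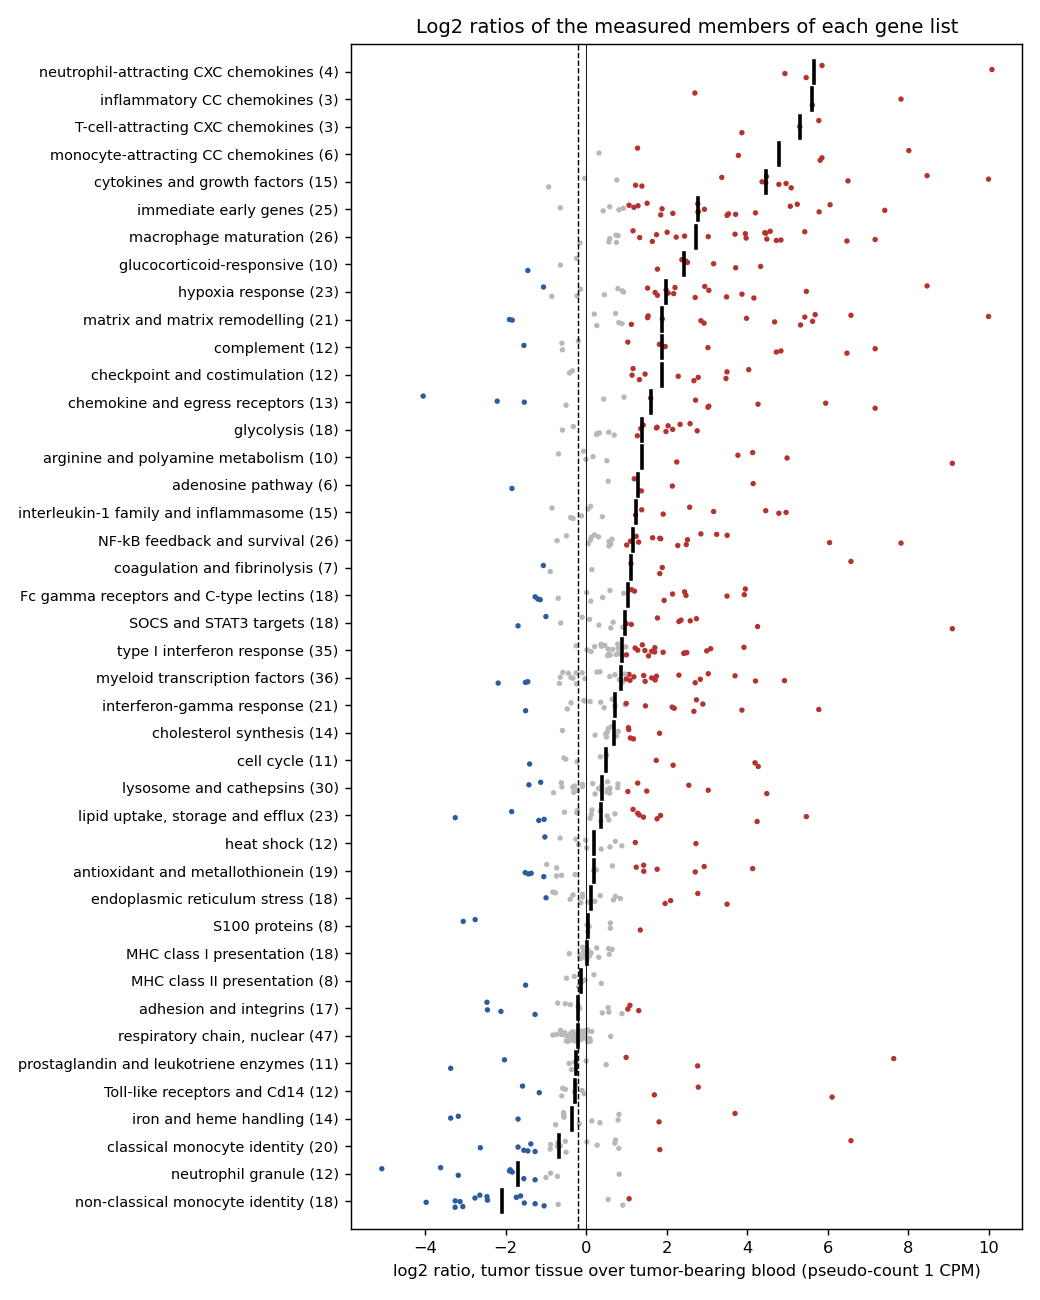
Log2 ratio of tumor tissue over tumor-bearing blood for the measured members of 42 gene lists, 1 point per gene, with the number measured in parentheses, a black bar at each list's median, a solid line at 0 and a dashed line at the median of all measured genes (-0.19). Red points were 2-fold or more higher and blue points lower; chemokine lists stand at the top, and the non-classical monocyte and granule lists at the bottom.

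Interferon-induced genes were far higher in some tumor clusters than in others. Of 35 measured type I interferon genes 16 were higher in tumor tissue and none lower, with a median log2 ratio of 0.90. Rsad2, which encodes the antiviral protein viperin, had 739 CPM in tumor tissue and 47.9 CPM in blood, 15.4-fold higher (13.5 to 17.7). Isg15, a ubiquitin-like modifier, had 1962 CPM in tumor tissue and 245 CPM in blood, 8.0-fold higher (7.53 to 8.50). Cxcl10 had 1730.3 CPM in tumor tissue and 118 CPM in blood, 14.7-fold higher (13.5 to 16.1). Rsad2 ranged from 27.8 CPM in cluster 7 to 4308 CPM in cluster 10, so tumor clusters 3, 7 and 9 (29.7, 27.8 and 45.6 CPM) lay below blood cluster 2 (94.8 CPM). For none of the 35 genes did every tumor cluster lie above every blood cluster. Without cluster 10, which held 198 of 1688 tumor cells, 8 members were higher. Of 21 measured interferon-gamma genes 9 were higher and 1 lower, and without cluster 10 these were 6 and 2.

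The interferon-stimulated response element core was searched as GAAA, any 2 letters and GAAA again, on both strands of the same windows. It was found in 16 of 30 promoters of the type I interferon list (53.3%), against 186 of 5554 promoters of measured genes (3.35%) and 978 of all 32851 (2.98%). Among promoters of the list's genes called higher it was in 8 of 15 (53.3%), the same share as in the list. Stretches of 120 bases are shown for 3 genes of the list with the core and for Cxcl10, with the core or its complement in capitals.
Isg15: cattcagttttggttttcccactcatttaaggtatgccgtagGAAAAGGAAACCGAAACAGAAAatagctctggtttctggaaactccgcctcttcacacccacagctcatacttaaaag
Rsad2: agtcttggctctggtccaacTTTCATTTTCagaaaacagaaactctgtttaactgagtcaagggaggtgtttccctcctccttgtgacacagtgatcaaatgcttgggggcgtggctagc
Ifit1: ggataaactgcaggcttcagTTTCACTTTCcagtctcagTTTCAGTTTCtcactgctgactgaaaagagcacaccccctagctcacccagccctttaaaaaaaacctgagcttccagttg
Cxcl10: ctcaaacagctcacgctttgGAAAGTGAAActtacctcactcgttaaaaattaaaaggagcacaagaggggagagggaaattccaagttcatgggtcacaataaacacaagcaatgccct
They are Isg15 at chr4:156200819-156200938 on the minus strand, Rsad2 at chr12:26456473-26456592 on the minus strand, Ifit1 at chr19:34640765-34640884 on the plus strand and Cxcl10 at chr5:92349003-92349122 on the minus strand (GRCm38.p6). In Isg15 3 overlapping matches make up 1 run. Ifit1, an RNA-binding antiviral protein gene, had 293 CPM in tumor tissue and 53.8 CPM in blood, 5.45-fold higher (4.78 to 6.23).

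Antigen presentation genes were level. Of 18 measured MHC class I genes none was called, and their median log2 ratio was 0.03. Of 8 measured MHC class II genes none was higher and 1 lower, with a median of -0.14. With TMM scaling these medians were 0.31 and 0.14, beside 0.09 for all measured genes. H2-Ab1, a class II chain, had 653 CPM in tumor tissue and 665 CPM in blood, and Cd74, the invariant chain, 2779.8 CPM in tumor tissue and 3162 CPM in blood. The lower gene was Ciita, the class II master regulator, with 6.53 CPM in tumor tissue and 20.4 CPM in blood, 3.12-fold lower (2.32 to 4.17), a call that ended with TMM scaling and under 9 of 22 settings in all. With TMM scaling Ciita was still 2.56-fold lower, but its 18.4 CPM in blood was under the minimum for measurement. Over all counted cells the fold itself fell to 1.95. Ciita is also a B-cell gene, and B-cell markers summed to 46.9 CPM in tumor tissue and 300.3 CPM in blood. Their part in the Ciita value was not tested.

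Fate and metabolic regulators differed gene by gene. Of 36 measured myeloid transcription factors 16 were higher and 3 lower. The lower were Cebpa and Cebpd, factors of early and acute-phase myeloid expression, and Batf3, a dendritic cell factor. Cebpa had 46.7 CPM in tumor tissue and 135 CPM in blood, 2.88-fold lower (2.58 to 3.21), and Batf3 10.2 CPM in tumor tissue and 49.8 CPM in blood, 4.89-fold lower (3.97 to 6.03). The 55 cells of cluster 17, taken for dendritic-like cells, were left out of the tumor side. The part of this choice in the Batf3 value was not tested. Cebpb, a related factor of activated macrophages, had 3741 CPM in tumor tissue and 1992 CPM in blood, just under the mark (2.28-fold higher and called with TMM scaling), and Spi1, the myeloid master factor PU.1, 649.9 CPM in tumor tissue and 881 CPM in blood. Runx3 was among the higher, with 518 CPM in tumor tissue and 62.4 CPM in blood, 8.30-fold higher (7.36 to 9.39). Of 10 measured arginine and polyamine genes 5 were higher, including Odc1, the first enzyme of polyamine synthesis, with 167 CPM in tumor tissue and 11.3 CPM in blood, 14.7-fold higher (11.1 to 19.9). Fth1, the heavy chain of the iron store ferritin, was the most abundant gene called higher, with 12561 CPM in tumor tissue and 3579 CPM in blood, 3.51-fold higher (3.45 to 3.57), while its light chain gene Ftl1 had 6613 CPM in tumor tissue and 5991 CPM in blood. Of 30 measured lysosomal genes 6 were higher, 2 lower and 22 not called, beside 10.6% higher and 10.4% lower of all measured genes. The largest ratios were those of Cd63 and Ctsl, a cathepsin, at 102 and 599 CPM in tumor tissue against 3.62 and 72.4 CPM in blood. Of 14 measured cholesterol synthesis genes 5 were higher, but 1 against naive blood.

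Antibody tags gave a second view of the same cells. Tags are counts per 10000 tags of a side, so a change in an abundant tag shifts all others, and the median antibody was 1.43-fold higher in tumor tissue. CD11b and Ly-6C together took 41.2% of tags in tumor tissue and 49.8% in blood. Tumor cells also carried fewer tags, with a median of 1583 per cell against 6102 in blood and 1649 to 3151 in the other 5 libraries. Of 47 antibodies 2 were 2-fold or more higher (4.26%) and 2 lower (4.26%). The CD16-32 antibody, against low-affinity IgG receptors, had 469.7 tags per 10000 in tumor tissue and 199 in blood, 2.36-fold higher. The CD14 tag had 115 per 10000 in tumor tissue and 49.4 in blood, 2.33-fold higher, far short of the 70.8-fold of Cd14 RNA. Relative to the median antibody neither was 2-fold higher, and 3 antibodies (CD115, CD97 and CD16.2) were 2-fold lower. In tags per cell CD16-32 and CD14 were lower in tumor tissue, at 87.8 and 21.5 against 137 and 33.9 in blood. Their direction thus depended on the measure.

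The tag that differed most was CD115, the receptor for the macrophage growth factor CSF-1. It had 161 tags per 10000 in tumor tissue and 773 in blood, 4.80-fold lower, and 131 to 199 in the 6 tumor clusters against 668 to 916 in the 4 blood clusters. The groups of clusters did not overlap, but the same held for many other tags of the panel. CD97 stood at 104 to 176 in the tumor clusters against 229 to 295 in the blood clusters. CD14 stood at 81 to 136 in the tumor clusters against 47.1 to 51.7 in the blood clusters. Csf1r RNA moved little, with 529.8 CPM in tumor tissue and 692 CPM in blood, 1.31-fold lower (1.25 to 1.36), under the mark. CD97, an adhesion receptor, was lower in both readouts, with 124 tags per 10000 in tumor tissue and 271 in blood, 2.18-fold lower, and 292 CPM of its gene Adgre5 in tumor tissue against 622 CPM in blood, 2.13-fold lower (2.03 to 2.23), or 1.75-fold lower and not called with TMM scaling. CD16.2, the IgG receptor of non-classical monocytes, had 126 tags per 10000 in tumor tissue and 186 in blood. Blood cluster 4 stood at 391, cluster 2 at 196 and clusters 0 and 1 at 80.6 and 123, against 72.6 to 163 in the tumor clusters. The mean over cells of the deposited natural-log values was level, at 4.57 in tumor tissue and 4.56 in blood, so the direction of this tag depended on the measure. There were 151 CPM of its gene Fcgr4 in tumor tissue and 68.5 CPM in blood, 2.20-fold higher (1.95 to 2.49). The Ly-6C tag was at 1908 per 10000 in tumor tissue and 2495 in blood, and CD11b at 2212 in tumor tissue and 2487 in blood. For 31 of the 47 antibodies the fold lay between 1.2 and 1.6, and the PD-L1 antibody was one of these at 1.43-fold, so its tag did not leave the bulk of the panel where Cd274 RNA was 6.92-fold higher. The panel names hold no isotype control, so a tag's background is unknown.

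**Figure D5:**
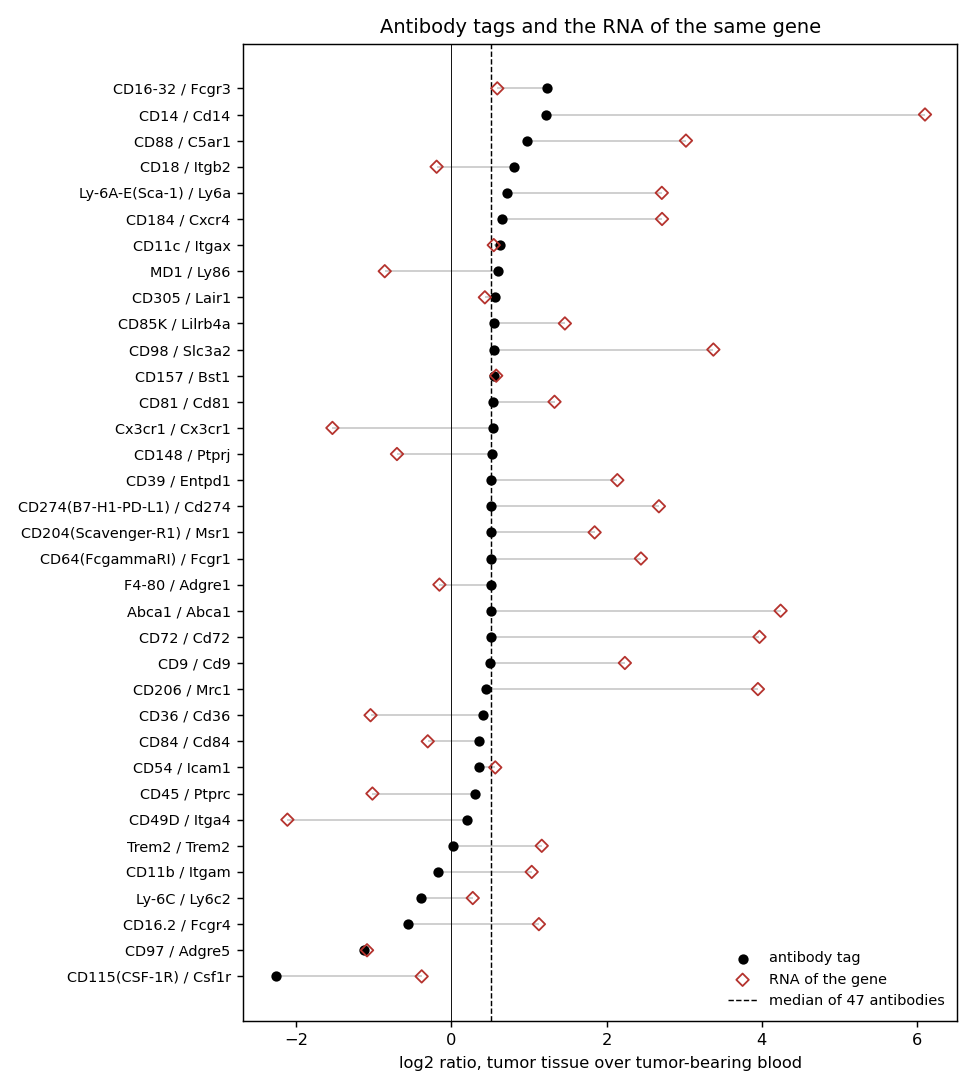
Log2 ratio of tumor tissue over tumor-bearing blood for the tags of 35 antibodies (black points, share of all tags) and for the measured RNA of the matching gene (red diamonds, CPM with a pseudo-count of 1), with a dashed line at the median of all 47 antibodies. Most tags sit at the dashed line whatever their RNA does; CD115, CD97, CD16.2, Ly-6C and CD11b stand to its left and CD16-32 and CD14 to its right.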

How the data were processed

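RNA and antibody tags were read in CD11b-enriched cells of 7 libraries, with single-cell 3' chemistry on a Chromium instrument per the labels' protocols. Per the submitters' processing notes, Cell Ranger was used with the mouse genome mm10; its version, the annotation and any filters on cells are not given in these sources. Deposited by the authors were UMI counts for 25127 genes in 4290 cells, antibody tag counts, tag values that equal the natural log of 1 plus counts per 10000, and a table of cells with library, cluster and mitochondrial fraction. Their normalized RNA values were not used.

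UMI counts were summed over the cells of each side and scaled by total UMIs. No test was run, since a group was 1 library; folds carry exact 95% conditional binomial intervals and shares exact 95% Clopper-Pearson intervals, for counting error only. Against 0 UMIs the fold is a lower bound at 3 UMIs. Log2 ratios used a pseudo-count of 1 CPM. Values by cluster were taken for clusters of at least 50 cells on a side, and those of the other libraries without clusters 11, 12, 13 and 17. Doublets were not called; an alternative dropped the 2% of cells richest in UMIs.

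The cells compared, the 42 gene lists and the markers were chosen with earlier results of these data known, so their direction here is no independent support. Genes were named by a rule: the 15 highest and 15 lowest log2 ratios (pseudo-count 10 CPM, leaving out mitochondrial, ribosomal-protein, haemoglobin, immunoglobulin, sex-linked and unnamed genes), up to 5 per list by size of ratio, the most abundant of lists with fewer than 5 called, and antibodies past 2-fold with their genes. Other genes in the text (Adgre1, Batf3, Ccl6, Ccr2, Cebpa, Cebpb, Clec4a3, Cx3cr1, Fcgr4, Fos, Ftl1, Gsr, Hif1a, Hk1, Hk2, Hk3, Ifit1, Itgam, Itgb2, Jun, Ldha, Ly6c2, Lyz1, Lyz2, Mmp8, Ms4a7, Nfkb1, Nr4a1, Pcna, Pgk1, Selenbp1, Slc2a1, Spi1 and Tgfb1) were chosen after their values were seen. Values of 2 genes are not reported here. Promoters were matched by symbol, for 466 of 592 measured list members. Python 3.11.15, pandas 2.3.3, scipy 1.17.1 and edgeR 4.0.16 (TMM factors alone) were used, and the fold and interval code was tested on simulated data.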

Additional observations from a re-analysis of the deposited data

How the results depend on the processing

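Of the count of genes higher (590) and lower (582), the values past 1.5 times the reported ones were 304 lower with TMM scaling, 303 lower with median-of-ratios scaling, 2959 higher and 2714 lower with no filter on low counts, 284 lower with a filter of 100 UMIs and 50 CPM, and 288 higher and 96 lower at 4-fold. Leaving out mitochondrial, ribosomal-protein and haemoglobin genes from the total gave 588 higher and 815 lower, or 41.9% higher. Of the 2 antibodies higher, 1 was left with the mean of the deposited normalized values, 0 relative to the median antibody and 0 in tags per cell, and 4 were higher over all counted cells; 44 antibodies were lower in tags per cell. The scalings by median antibody and by tags per cell were chosen after seeing the data.

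None of the 169 named genes past 2-fold changed the sign of its log2 ratio under 22 settings. Named genes under 2-fold did so in 64 recomputed ratios of 14 genes, such as Hspa8, H2-Ab1 and Cd74 with TMM scaling. In all, 870 of 4444 recomputed ratios moved past their counting interval. Of the 169 genes, 139 kept their call under all 22 settings, and 155 to 169 kept it under each single one. Most of the 169 were picked by the size of their ratio, so a kept sign or call was likely beforehand. With TMM scaling 164 of the 169 kept their call. Among all measured genes, 590 of 590 higher and 304 of 582 lower genes kept it with TMM scaling. A call also ended where a gene stayed past 2-fold but fell under the minimum for measurement. S1pr5 did so without blood cluster 4, at 12.7-fold. Naive blood in place of tumor-bearing blood ended the most calls, among them Ccl9, Cyp51, Sqle and Thbd of the higher and Chil3, Lcn2 and Mmp9 of the lower genes, and moved 42 of the 169 by over 1.5 times. No paired analysis was possible because each group is 1 library. The depth of the blood side, where 3 UMIs are 0.678 CPM against 0.188 CPM in tumor tissue, limits folds of genes near 0 in blood.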

Other observations

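Receptors that sense microbes and dying cells went both ways within their families. Of 18 measured Fc gamma receptor and C-type lectin genes 9 were higher in tumor tissue and 3 lower, or 10 and 0 with TMM scaling. The lectins of the Clec4 cluster that act as pattern receptors led, with 303 CPM of Clec4n (Dectin-2) in tumor tissue and 19 CPM in blood, 16-fold higher (12.9 to 20), 508 CPM of Clec4d in tumor tissue and 44.1 CPM in blood, 11.5-fold higher (10 to 13.4), and 481 CPM of Clec4e (Mincle) in tumor tissue and 85.5 CPM in blood, 5.63-fold higher (5.08 to 6.26). Their relative Clec4a3 was lower, with 267 CPM in tumor tissue and 642 CPM in blood, 2.41-fold lower (2.30 to 2.53), or 1.98-fold lower and not called with TMM scaling. Of 12 measured Toll-like receptor pathway genes 3 were higher, Cd14 among them, 2 lower and 7 not called. Of all measured genes 10.6% were higher and 10.4% lower. Tlr2, a surface receptor for bacterial lipoproteins, had 459 CPM in tumor tissue and 65.8 CPM in blood, 6.98-fold higher (6.21 to 7.87), and Tlr7, an endosomal RNA sensor, 28.3 CPM in tumor tissue and 86.6 CPM in blood, 3.06-fold lower (2.66 to 3.51).

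Of 6 measured genes of the adenosine pathway 4 were higher in tumor tissue and 1 lower, the peptidase gene Dpp4 with 5.90 CPM in tumor tissue and 23.7 CPM in blood, 4.02-fold lower (3.02 to 5.37). Entpd1 (CD39), which breaks down ATP, had 92.1 CPM in tumor tissue and 20.1 CPM in blood, 4.58-fold higher (3.69 to 5.73). Nt5e (CD73), which makes adenosine from AMP, had 20.7 CPM in tumor tissue and 0.226 CPM, or 1 UMI, in blood, 91.7-fold higher (16.3 to 3631); its level was close to the minimum for measurement, and its call ended with cells thinned to 5000 UMIs, with equal weight of clusters, and without tumor cluster 3 or 8. The CD39 tag was 1.43-fold higher, the value of the median antibody. Antioxidant genes went both ways, with 7 of 19 measured higher and 4 lower. Slc7a11, the cystine importer, had 40.4 CPM in tumor tissue and 1.36 CPM in blood, 29.8-fold higher (13.6 to 81.4), and Gsr, which regenerates glutathione, 298 CPM in tumor tissue and 806 CPM in blood, 2.70-fold lower (2.59 to 2.82). The decoy receptor gene Il1r2, which captures interleukin-1, had 87.1 CPM in tumor tissue and 8.82 CPM in blood, 9.87-fold higher (7.18 to 13.9).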
